A study of Solanum tuberosum with 12 samples.

Results

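The 4 transcripts of potato tuber periderm described here were PGSC0003DMT400025812 (annotated 25 kDa protein dehydrin), PGSC0003DMT400077957 (Metallothionein type 2), PGSC0003DMT400075611 (Catalase) and PGSC0003DMT400089149 (Polyubiquitin). They are 4 of the 54416 transcripts with values. They were chosen because the study's list of 101 differentially expressed transcripts holds them under these annotations and because they were among the 20 transcripts with the most counts. Dehydrin was also chosen for its low counts in line 9 and high counts in line 12, so its differences among lines are a description and carry no test. The same holds for every difference from the Wild type, since the study's list was made from the contrast of RNAi with Wild type plants.

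The libraries came from tuber skin of *Solanum tuberosum* cv Désirée grown in soil under 12 h light and 12 h dark. Lines 9, 12 and 47 carried an RNA interference construct against *StRIK*, a putative RNA-binding protein with KH domains, and the Wild type carried none. Each line is 1 transformation event, so a difference between lines cannot be told apart from a difference between insertion events. Each genotype had 3 replicates, 12 libraries in all, and the p-values below measure the spread between these replicates. The study's own comparison used the 3 Wild type libraries with line 9 replicate 1, line 12 replicates 2 and 3 and all 3 libraries of line 47.

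Periderm forms the skin of the tuber. Its outer layers, the phellem, consist of suberized dead cells that limit water loss, and they arise from the phellogen, a layer of dividing cells. Dehydrins are hydrophilic late embryogenesis abundant proteins that accumulate in plant cells under drought, cold and abscisic acid. Metallothioneins are small cysteine-rich proteins that bind metals such as copper and zinc. Catalase breaks down hydrogen peroxide in peroxisomes. Polyubiquitin genes encode ubiquitin units in a head-to-tail chain, which are released to tag other proteins for degradation. In whole tissue, fewer cells of a type and less RNA per cell cannot be told apart.

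The libraries held 18650236 to 21585122 effective counts each, and the 4 transcripts together took between 1.09% and 1.49% of a library. The counting error of a value was between 0.329% and 0.552%, well under the spread between replicates, and it covers counting only. *StRIK* averaged 59.5 ± 13.5 CPM in line 9, 43.6 ± 6.90 in line 12, 44.6 ± 7.96 in line 47 and 84.7 ± 3.08 in the Wild type (SD, n = 3 each), as the sum of its 3 targeted isoforms, where CPM is a count scaled by library size. All RNAi libraries were below every Wild type library, and line 9 kept the most *StRIK*. Line 47 replicates 2 and 3 held 1.70% and 1.27% of counts in 9 rRNA-like transcripts, against at most 0.169% in the other libraries. The lane tag of the files was 7 for lines 9 and 12 and line 47 replicate 1, and 6 for the Wild type and the other two line 47 libraries, so only line 47 has libraries with both tags. With the lane tag as a term of the fit, which line 47 alone informs, the log2 fold change of dehydrin against the Wild type was -0.80 in line 9 and 0.38 in line 12, beside -0.79 and 0.39 without it. For metallothionein the values with the term were 0.36 and 0.17 in the same lines, beside 0.23 and 0.04 without it. For polyubiquitin they were 0.36 and 0.30, beside 0.42 and 0.36, and for catalase 0.05 and -0.01, beside 0.02 and -0.04. Lines 9 and 12 have only tag 7 and the Wild type only tag 6. A difference between them cannot be told apart from the lane tag except through line 47.

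Values below are normalized counts, which are effective counts divided by the library size after TMM scaling (edgeR's trimmed mean of ratios between libraries) and multiplied by the mean of these sizes (19876858). Counts grow with transcript length, so they are compared between libraries and not between transcripts. Catalase and polyubiquitin belong to gene families, and reads shared with near-identical copies were divided among them by the counting program, so part of their counts is uncertain. The same can hold for dehydrin and metallothionein.

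By mean normalized count over the 12 libraries, catalase ranked 11, polyubiquitin 12, metallothionein 13 and dehydrin 18 among all transcripts, an order of counts and not of molecules. Dehydrin, the member closest to the limit of 20, averaged 55342. Ranks 19 and 20, just inside the limit, averaged 52718 and 52631, and ranks 21 and 22, just outside it, averaged 51280 and 50985. In single libraries dehydrin ranked between 10 and 49, the widest span of the 4. Metallothionein ranked between 8 and 22, catalase between 10 and 23 and polyubiquitin between 10 and 24.

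**Figure D1:**
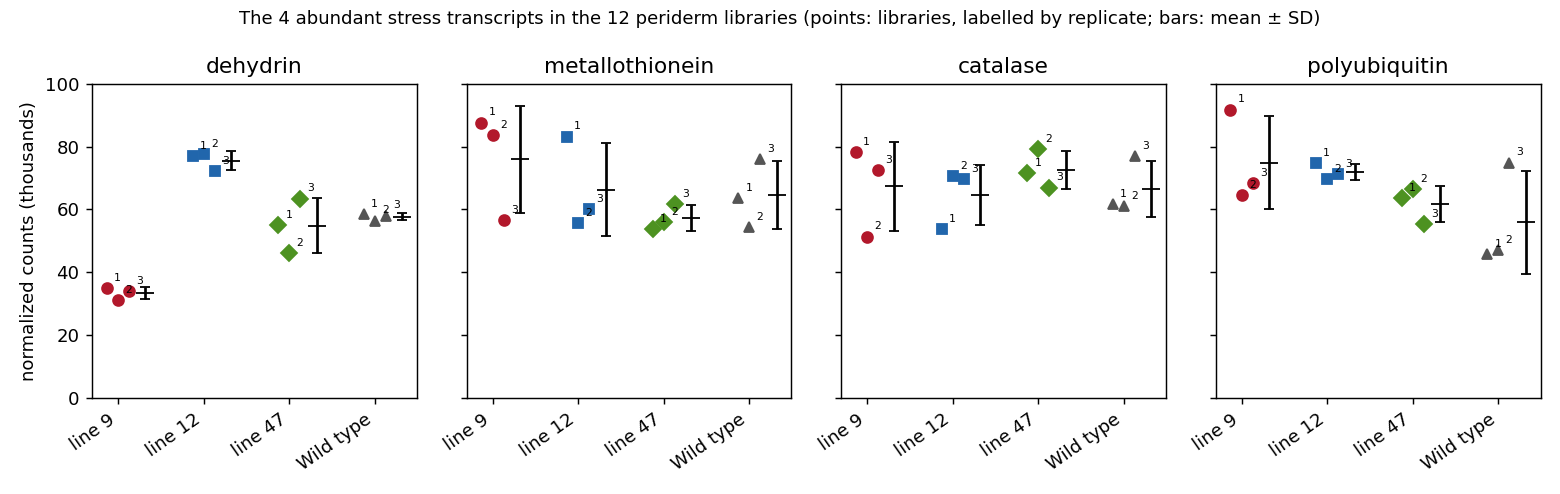
Normalized counts (y axis from 0, in units of 1000) of dehydrin, metallothionein, catalase and polyubiquitin in lines 9, 12 and 47 and the Wild type. Points are libraries, numbered by replicate, and bars are the mean ± SD of 3 libraries. The dehydrin points of line 9 lie between 31178 and 34867 and those of line 12 between 72156 and 77475, with the Wild type in a narrow band between them. The other transcripts overlap between most genotypes.

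Dehydrin was low in line 9, high in line 12 and near the Wild type in line 47. It had 34867, 31178 and 33943 normalized counts in line 9, against 58548, 56464 and 57988 in the Wild type. All line 9 libraries lay at 54.1% to 60.5% of the Wild type mean. It had 76944, 77475 and 72156 normalized counts in line 12, or 125% to 134% of the Wild type mean. Line 12 thus lay above every Wild type library, and line 9 below every one. In line 47 it had 55017, 46079 and 63445 normalized counts, which enclosed the Wild type range.

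The dehydrin means were 33329 ± 1920 in line 9, 75525 ± 2930 in line 12, 54847 ± 8684 in line 47 and 57667 ± 1079 in the Wild type (SD, n = 3 each). From high to low the order was line 12, Wild type, line 47 and line 9. Its middle neighbours, Wild type and line 47, overlapped, while the neighbours at either end of the order did not. The coefficient of variation was 5.76% in line 9, 3.88% in line 12, 15.8% in line 47 and 1.87% in the Wild type. Within line 47 the spread came from replicates 2 and 3, the pair of libraries with lane tag 6 and more rRNA-like counts, and replicate 2 was low and replicate 3 high. Their part in the dehydrin values of line 47 was not tested.

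On the log2 scale of the edgeR fit, dehydrin differed by -1.18 (SE 0.20) in line 9 against line 12, by -0.72 (SE 0.20) in line 9 against line 47 and by 0.46 (SE 0.20) in line 12 against line 47. Against the Wild type the log2 fold change was -0.79 (SE 0.20) in line 9, 0.39 (SE 0.20) in line 12 and -0.07 (SE 0.20) in line 47. As a ratio, line 9 held 0.441 times the dehydrin of line 12, with a 95% interval of 0.326 to 0.598. Against the Wild type the interval of the ratio was 0.428 to 0.781 in line 9 and 0.705 to 1.28 in line 47. In line 12 it was 0.970 to 1.77, which includes equal levels although the libraries did not overlap. Dehydrin was chosen on its levels in lines 9 and 12, so these intervals describe the spread and do not serve as tests. The paper, which used the program baySeq, names dehydrin among the genes upregulated in RNAi periderm. Over the 9 libraries of the study's comparison, where line 9 gives 1 library and line 12 gives 2, the log2 fold change of RNAi against Wild type was 0.01 (SE 0.25). The RNAi libraries of that comparison held the low line 9 value of 34867 together with the line 12 values of 77475 and 72156.

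Not overlapping between groups of 3 is common in these data. Of 38364 transcripts tested, 14.2% did not overlap between line 9 and line 12, 19.5% between line 9 and line 47, 16.4% between line 12 and line 47, 12.2% between line 9 and the Wild type and 15.4% between line 12 and the Wild type. Dehydrin was free of overlap in all 5 of these contrasts, and since dehydrin was chosen on this pattern nothing is read from that count.

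The lane tags do not separate line 9 from line 12, because all 6 of these libraries have tag 7. Within tag 7 the single library of line 47 had 55017 normalized counts of dehydrin, between the highest of line 9 (34867) and the lowest of line 12 (72156). Within tag 6 the line 47 values of 46079 and 63445 lay to either side of the Wild type values. Dehydrin was also set against the other 3 transcripts within each library, a ratio that no library scaling can move. It uses the dehydrin values behind the choice, so it is a description. In line 9 the denominators averaged 134% (polyubiquitin), 117% (metallothionein) and 101% (catalase) of the Wild type mean. In line 12 they averaged 129%, 103% and 97.2% in the same order. A higher denominator lowers the ratio. The ratio of dehydrin to polyubiquitin counts was 0.380, 0.482 and 0.497 in line 9, 1.03, 1.11 and 1.01 in line 12, 0.866, 0.694 and 1.15 in line 47, and 1.28, 1.20 and 0.774 in the Wild type. By this ratio line 9 was below all other libraries, and line 12 lay inside the Wild type range. Against metallothionein the ratio averaged 0.457 ± 0.125 in line 9, 1.17 ± 0.235 in line 12, 0.959 ± 0.116 in line 47 and 0.908 ± 0.139 in the Wild type (SD, n = 3 each). Against catalase it averaged 0.507 ± 0.087 in line 9, 1.19 ± 0.214 in line 12, 0.766 ± 0.183 in line 47 and 0.877 ± 0.106 in the Wild type (SD, n = 3 each). Line 9 had the lowest mean with each denominator. Against metallothionein its highest ratio, 0.601, was below all other libraries, while against catalase its highest ratio, 0.607, was above that of line 47 replicate 2, 0.582.

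**Figure D2:**
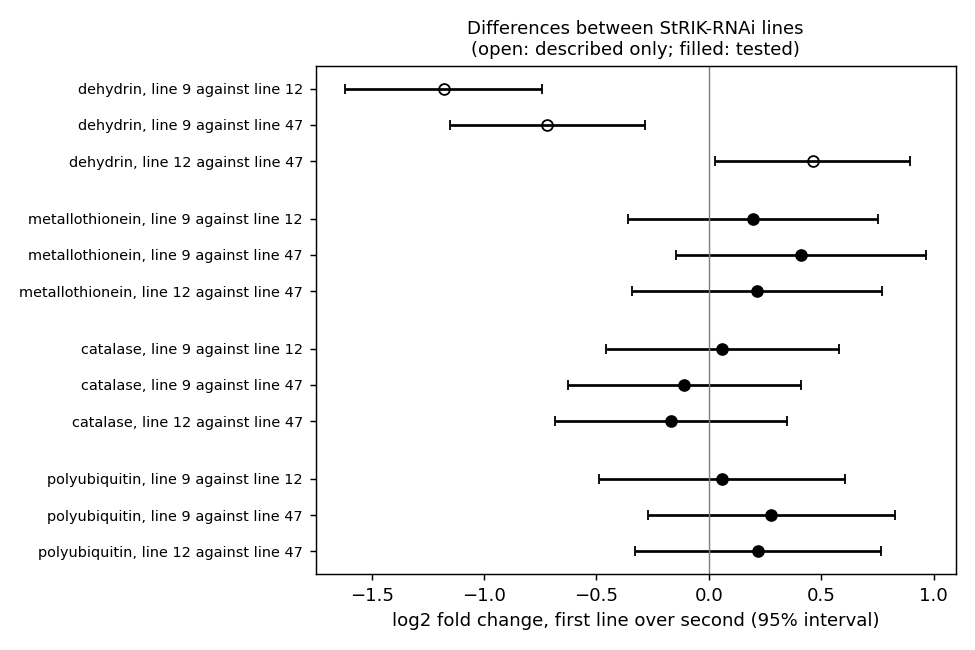
Log2 fold change between pairs of lines (x axis, first line over second) with its 95% interval for each transcript. Open points (dehydrin) are described only and filled points were tested. The intervals of the open points do not serve as tests, since dehydrin was chosen on its line pattern. The dehydrin points lie at -1.18, -0.72 and 0.46, and all 9 filled intervals include 0.

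Metallothionein varied more within a genotype than between them. It had 87630, 83650 and 56492 normalized counts in line 9, 83156, 55619 and 60118 in line 12, 53735, 55904 and 61744 in line 47, and 63464, 54360 and 76043 in the Wild type. High values stood in 4 libraries of 3 genotypes, line 9 replicates 1 and 2, line 12 replicate 1 and Wild type replicate 3. The other 8 libraries lay at or below 63464, and these 4 at or above 76043. The means were 75924 ± 16946 in line 9, 66298 ± 14772 in line 12, 57128 ± 4142 in line 47 and 64623 ± 10888 in the Wild type (SD, n = 3 each). From high to low the order was line 9, line 12, Wild type and line 47, and each neighbour overlapped the next.

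Between lines, metallothionein passed the test in none of the 3 contrasts. The log2 fold change was 0.20 (SE 0.26) in line 9 against line 12, 0.41 (SE 0.26) in line 9 against line 47 and 0.21 (SE 0.26) in line 12 against line 47. The lowest of the 3 adjusted p-values (edgeR's quasi-likelihood test, Benjamini-Hochberg) was 0.52, for line 9 against line 47, where the 95% interval of the ratio was 0.904 to 1.95. Against the Wild type the log2 fold change was 0.23 (SE 0.26) in line 9, 0.04 (SE 0.26) in line 12 and -0.18 (SE 0.26) in line 47. Over the study's 9 libraries, where the paper names a metallothionein among the downregulated genes, it was -0.05 (SE 0.21). Of the 4 libraries with high metallothionein, line 9 replicate 2 and line 12 replicate 1 are not in that comparison.

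Catalase had nearly the same mean in every genotype. It had 78138, 51347 and 72439 normalized counts in line 9, 53634, 70468 and 69680 in line 12, 71628, 79137 and 66952 in line 47, and 61610, 61013 and 76832 in the Wild type. The lowest values were those of line 9 replicate 2 and line 12 replicate 1, which were among the 4 libraries with high metallothionein. The other two of those 4, line 9 replicate 1 (78138) and Wild type replicate 3 (76832), were among the highest in catalase. The means were 67308 ± 14113 in line 9, 64594 ± 9500 in line 12, 72572 ± 6148 in line 47 and 66485 ± 8966 in the Wild type (SD, n = 3 each). The order from high to low was line 47, line 9, Wild type and line 12, and all neighbours overlapped. The log2 fold change was 0.06 (SE 0.24) in line 9 against line 12, -0.11 (SE 0.24) in line 9 against line 47 and -0.17 (SE 0.24) in line 12 against line 47. None passed the test, and the lowest adjusted p was 0.88 (edgeR's quasi-likelihood test). The 95% interval of the ratio for line 12 against line 47 ran from 0.622 to 1.27. Against the Wild type the log2 fold change was 0.02 (SE 0.24) in line 9, -0.04 (SE 0.24) in line 12 and 0.13 (SE 0.24) in line 47. Over the study's 9 libraries it was 0.12 (SE 0.17).

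Polyubiquitin had its lowest values in the Wild type, but in 2 of its 3 libraries. It had 91720, 64658 and 68292 normalized counts in line 9, 74829, 69628 and 71237 in line 12, 63551, 66407 and 55343 in line 47, and 45820, 46940 and 74889 in the Wild type. Wild type replicates 1 and 2 were below all 9 RNAi libraries, and Wild type replicate 3 was above 8 of them. The means were 74890 ± 14688 in line 9, 71898 ± 2663 in line 12, 61767 ± 5744 in line 47 and 55883 ± 16469 in the Wild type (SD, n = 3 each). From high to low the order was line 9, line 12, line 47 and Wild type. Lines 12 and 47 did not overlap (lowest 69628 against highest 66407), as was the case for 16.4% of all transcripts tested in that contrast, and the other neighbours did.

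The log2 fold change of polyubiquitin was 0.06 (SE 0.25) in line 9 against line 12, 0.28 (SE 0.25) in line 9 against line 47 and 0.22 (SE 0.25) in line 12 against line 47. None passed the test, with adjusted p-values of 0.96, 0.67 and 0.89 (edgeR's quasi-likelihood test). The 95% interval of the ratio reached 1.77 for line 9 against line 47. Against the Wild type the log2 fold change was 0.42 (SE 0.25) in line 9, 0.36 (SE 0.25) in line 12 and 0.14 (SE 0.25) in line 47, and over the study's 9 libraries it was 0.31 (SE 0.23). The values against the Wild type depended on single libraries. Without Wild type replicate 3 they were 0.69 in line 9, 0.63 in line 12 and 0.41 in line 47. Without Wild type replicate 1 they were 0.30 in line 9, 0.24 in line 12 and 0.02 in line 47, and without Wild type replicate 2 they were 0.31, 0.25 and 0.04 in the same lines. Without line 9 replicate 1 the line 9 value was 0.25, and without line 47 replicate 2 the line 47 value was 0.08.

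Metallothionein, catalase and polyubiquitin were called in 0 of 9 contrasts between lines, and in none was the unadjusted p under 0.05. DESeq2 and limma-voom also called 0 of 9. The background was low: over all 38364 transcripts, 0.0365% were called in line 9 against line 12, 0.0209% in line 9 against line 47 and 0.0235% in line 12 against line 47. In the joint test among the 3 lines, which called 0.0417% of transcripts, the adjusted p was 0.69 for metallothionein, 0.92 for catalase and 0.81 for polyubiquitin (edgeR's quasi-likelihood test). Each of the 9 intervals includes equal levels, and the ratios they hold go down to 0.622 for catalase in line 12 against line 47 and up to 1.95 for metallothionein in line 9 against line 47.

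The share of the variation that lay between genotypes set the 4 transcripts apart by description. Among the 240 transcripts that averaged at least 10000 normalized counts, the sum of squares between the 4 genotypes made up 94.4% of the total for dehydrin, the highest share of all 240, against a median of 33.3%. It made up 42.9% for polyubiquitin, 28.3% for metallothionein and 11.2% for catalase. The standard deviation within genotypes was 0.13 (log2) for dehydrin, the third lowest of the 240. It was 0.23 for catalase, 0.25 for polyubiquitin and 0.27 for metallothionein, against a median of 0.32. Dehydrin was chosen for its line pattern, so its place describes that choice.

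**Figure D3:**
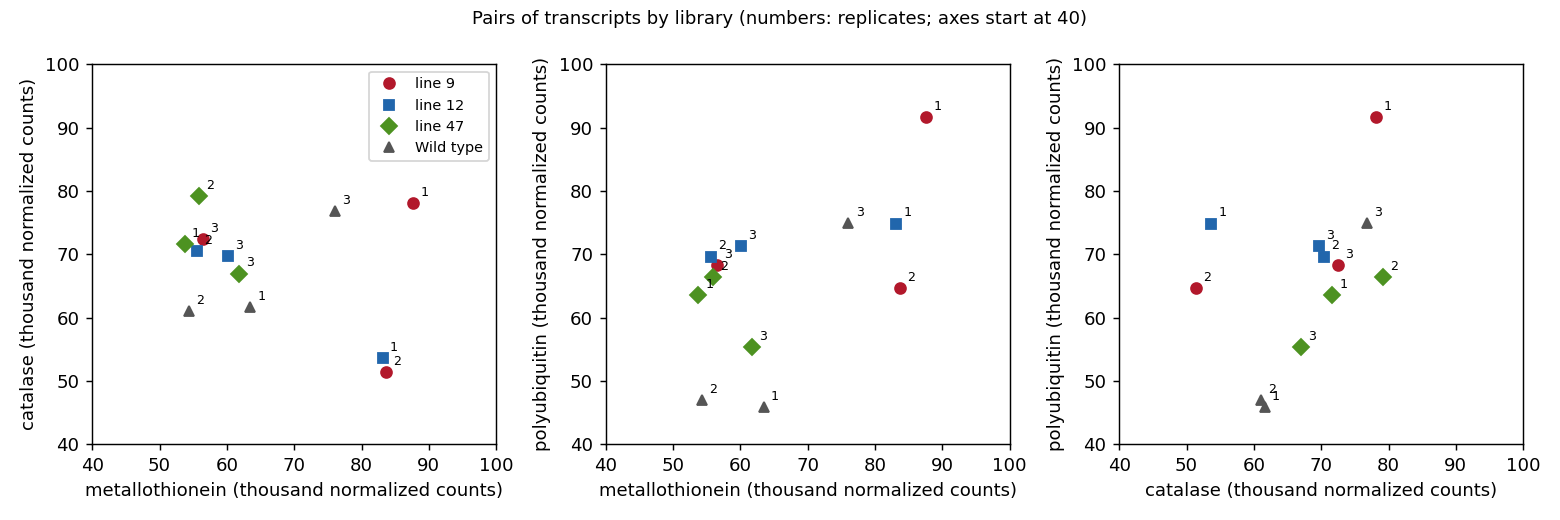
Normalized counts (in units of 1000, both axes from 40) of metallothionein, catalase and polyubiquitin, plotted by pairs for each of the 12 libraries, with replicate numbers. Line 9 replicate 2 and line 12 replicate 1 stand at the lower right of the plot of catalase against metallothionein, with 51347 and 53634 normalized counts of catalase.

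The 3 tested transcripts were then compared with each other across the 12 libraries, on log2 normalized CPM. Metallothionein and polyubiquitin had a Pearson's r of 0.52 (permutation p = 0.086, adjusted over 3 pairs 0.26) and a Spearman's rho of 0.45 (permutation p = 0.14, adjusted 0.24). Metallothionein and catalase had an r of -0.33 (permutation p = 0.30, adjusted 0.30) and a rho of -0.16 (permutation p = 0.62, adjusted 0.62). Catalase and polyubiquitin had an r of 0.37 (permutation p = 0.23, adjusted 0.30) and a rho of 0.43 (permutation p = 0.16, adjusted 0.24). No pair passed the threshold, and libraries of one line are not independent of each other.

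Values without the 2 farthest libraries show how far each relation depended on them. Without line 9 replicates 1 and 2, the farthest in metallothionein, r was 0.36 for metallothionein with polyubiquitin and -0.42 for metallothionein with catalase. Within the 8 libraries below the gap in metallothionein, a subset chosen on its values after they were seen, its r with polyubiquitin was -0.32 and that with catalase -0.37. The sign of the relation with polyubiquitin thus turned there, while that with catalase had the same sign in both subsets. Without line 9 replicate 2 and line 12 replicate 1, the farthest in catalase, r of catalase with polyubiquitin was 0.88 over the remaining libraries. Within the 7 libraries of lane tag 7, r was -0.50 for metallothionein with catalase, 0.57 for metallothionein with polyubiquitin and 0.35 for catalase with polyubiquitin. Lane tag 6 held 5 libraries, under the minimum of 6 set for a correlation. On deviations from the genotype means, r was -0.26 for metallothionein with catalase, 0.49 for metallothionein with polyubiquitin and 0.63 for catalase with polyubiquitin.

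In these correlations dehydrin was not pooled over line 9, which stands apart in it. Over the other 9 libraries its r was 0.37 with metallothionein, -0.49 with catalase and 0.35 with polyubiquitin, and line 12 also stands at one end there. On deviations from the genotype means over 12 libraries its r was 0.14 with metallothionein, -0.04 with catalase and -0.07 with polyubiquitin.

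The largest single axis of differences between libraries of one genotype was then set beside the 4 transcripts. Over the 17169 transcripts that averaged at least 100 normalized counts, the first principal component of the deviations from the genotype means carried 48.1% of their variance. Its highest scores were 0.38 in line 12 replicate 1 and 0.38 in Wild type replicate 3, followed by 0.13 in line 9 replicate 2. The deviations of metallothionein correlated with these scores with an r of 0.86 over 12 libraries, and with 0.85 without Wild type replicate 3. The r was 0.56 for polyubiquitin, 0.32 without that library, and -0.17 for catalase, -0.46 without it. For dehydrin it was 0.01. The part of this axis in the values of metallothionein was not tested, and what the libraries share along it is not named in the labels. The axis was built from all these transcripts, the 4 members among them. The share of all transcripts with an r as large as that of metallothionein is not given here.

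**Figure D4:**
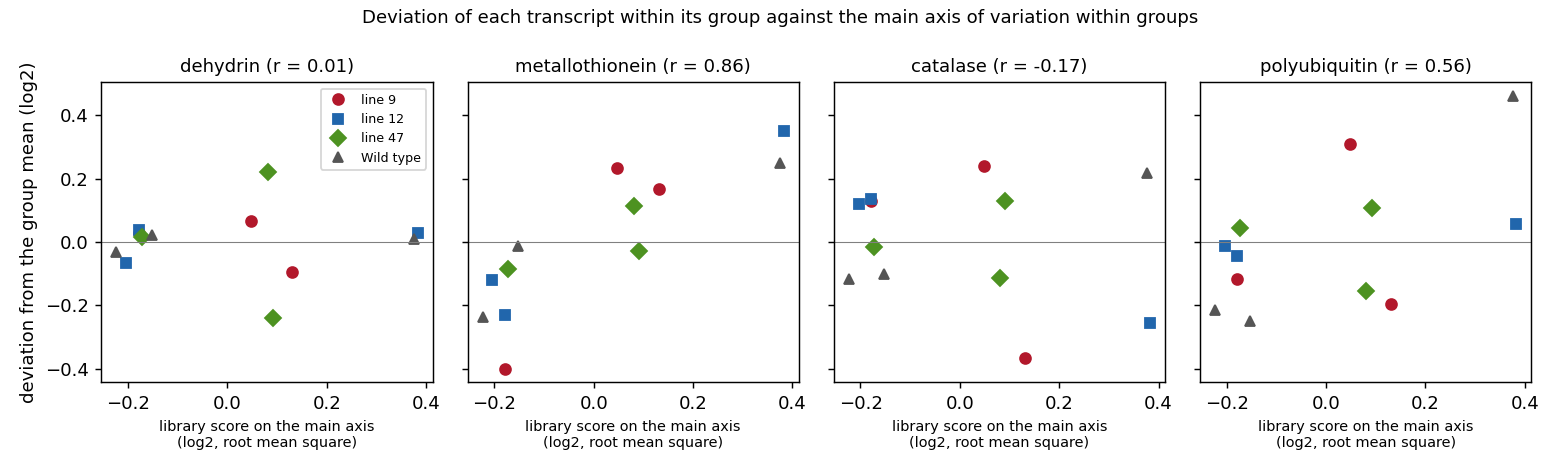
Deviation of each transcript from its genotype mean (log2, y axis) against the score of the library on the first principal component of such deviations over 17169 transcripts (x axis). Points are the 12 libraries by genotype. Metallothionein climbs along the axis (r = 0.86), while dehydrin stays near 0 at both ends (r = 0.01) and spreads only in line 47.

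The transcripts most like each member were found by Pearson's r over the 12 libraries, first among the 35 other transcripts of the study's list that averaged at least 100 normalized counts. For dehydrin the highest r there was 0.20, for PGSC0003DMT400026262 (Conserved gene of unknown function), and the next 0.15, for PGSC0003DMT400022133 (Auxin-responsive protein IAA13). Metallothionein was most like PGSC0003DMT400055489, a phenylalanine ammonia-lyase that opens the phenylpropanoid pathway (r = 0.62), and then polyubiquitin (r = 0.52). Catalase was most like PGSC0003DMT400049886, also annotated phenylalanine ammonia-lyase (r = 0.53), and then PGSC0003DMT400082017, an oleate desaturase (r = 0.45). Polyubiquitin was most like PGSC0003DMT400073611, an RNase H family protein (r = 0.59), and then PGSC0003DMT400049886 (r = 0.55). Among all 17168 other transcripts the highest r was 0.93 for dehydrin (PGSC0003DMT400064834), 0.96 for metallothionein (PGSC0003DMT400083785), 0.85 for catalase (PGSC0003DMT400011102) and 0.98 for polyubiquitin (PGSC0003DMT400057274). These are the highest of many values over 12 libraries that share genotype and depth, and the 4 identifiers have no annotation in the sources used here.

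The study's list was chosen on these samples, in a comparison that left out line 9 replicates 2 and 3 and line 12 replicate 1. Transcripts chosen that way can differ between lines through the choice itself, so the counts and medians below are a description. The list puts 10 further transcripts in its stress category. Of these 10, 0 were called between lines in either direction, while 4 had an unadjusted p under 0.05 in line 9 against line 12, 5 in line 9 against line 47 and 3 in line 12 against line 47, in contrasts where 9.69%, 12.6% and 7.44% of all transcripts did. DESeq2 called 0, 0 and 2 of the 8, 8 and 9 with an adjusted p, and limma-voom 0 of 10 in each. The 2 were lower in line 12 than in line 47 and are PGSC0003DMT400080875 (Senescence-associated protein), one of the rRNA-like transcripts, and PGSC0003DMT400083063 (Ribulose bisphosphate carboxylase large chain), named after their values were seen. PGSC0003DMT400080875 had 3125, 90560 and 59039 normalized counts in line 47 replicates 1, 2 and 3, and PGSC0003DMT400083063 had 2.56, 124 and 136, so both were high in the pair of line 47 libraries with more rRNA-like counts. Over all 10 stress transcripts the median log2 fold change was 0.73 in line 9 against line 12 and 0.05 in line 9 against line 47. It was -0.09 in line 12 against line 47, and the medians over all transcripts were 0.00, 0.01 and 0.01 in the same order. Of the 5 other abundant transcripts of the list, a peroxidase, both phenylalanine ammonia-lyases, a DAHP synthase and the oleate desaturase, 0 were called between lines by any of the 3 tools, and 0 had an unadjusted p under 0.05. Their log2 fold changes ran from -0.37 to 0.44.

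**Figure D5:**
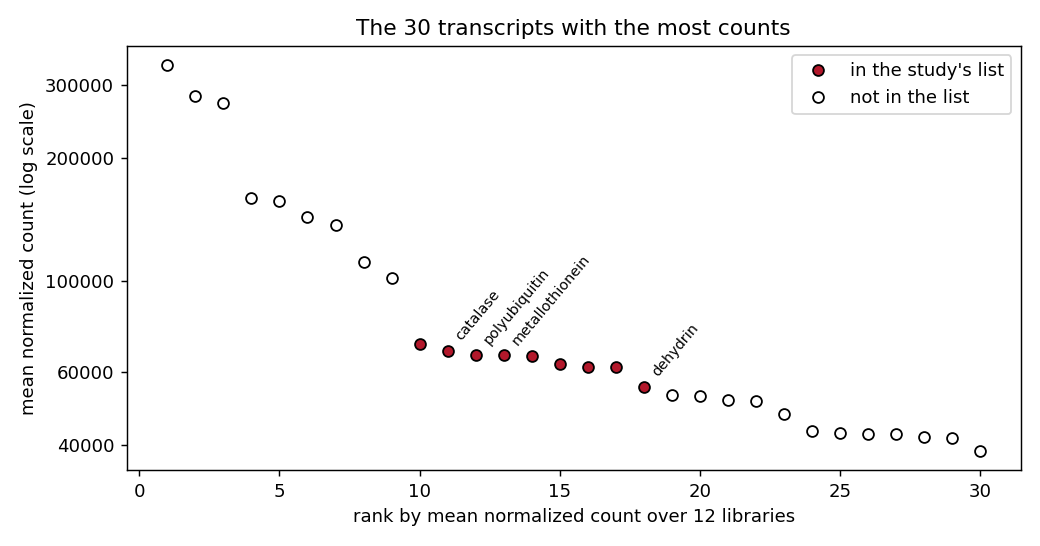
Mean normalized count over 12 libraries (log scale) of the 30 transcripts with the most counts, by rank. Filled points are in the study's list of 101 transcripts. The filled points occupy ranks 10 to 18 without a gap, and dehydrin is the last of them at 55342.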

How the data were processed

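The authors isolated tuber skin, prepared TruSeq libraries, sequenced them on a HiSeq instrument, checked reads with FastQC 0.11.2 and mapped them with Bowtie 2 to transcripts extracted with Cufflinks tools from the Group Phureja assembly. They deposited the effective counts of eXpress 1.5.1, which are estimated counts per transcript, adjusted for bias. These counts still grow with transcript length and are not normalized between libraries. Here effective counts were rounded for testing, and transcripts with at least 10 counts over 12 libraries were fitted with edgeR 4.0.16 (TMM, quasi-likelihood test, Benjamini-Hochberg over 38364 transcripts, threshold 0.05) in R 4.3.3, with all 4 genotypes in 1 fit. Correlations used a pseudocount of 0.5 and two-sided permutation tests with 100000 resamples (Python 3.11.15, scipy 1.17.1). Fits were tested on simulated data. Alternatives were RLE factors, library totals, DESeq2 1.42.0, limma-voom (limma 3.58.1), other count minimums, a replicate block, the lane tag, removal of 9 rRNA-like transcripts, RNAi libraries only, line 47 replicates 2 and 3 left out, each library left out in turn and a pseudocount of 5.

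Groups came from the sample labels and lane tags from the file names. The named transcripts are the 4 members, the other abundant and stress transcripts of the study's list, and, by the highest Pearson's r, 2 transcripts of that list and 1 of all transcripts per member. The members and lists were chosen with earlier results of these data known. Names come from the study's list. RefSeq's potato gene table shares 0 identifiers with the files, so no positions are given.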

Additional observations from a re-analysis of the deposited data

Results flagged for a closer look

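Dehydrin was below every Wild type library in all 3 libraries of line 9 and above every one in all 3 libraries of line 12. The log2 fold change between line 9 and line 12 was -1.18 (SE 0.20). It was picked out because all samples of one line moved opposite to all samples of another relative to the Wild type; the difference was not tested, since dehydrin was chosen for this pattern. Groups of 3 libraries are too small for a check of single libraries that stand apart.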

How the results depend on the processing

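Of 207 refits of the 9 tested contrasts of metallothionein, catalase and polyubiquitin, 0 passed the threshold and 203 kept the direction. The 4 that turned, all from leaving out 1 library, were catalase in line 9 against line 12 without line 9 replicate 1 (-0.053, log2) or line 12 replicate 1 (-0.052), catalase in line 9 against line 47 without line 9 replicate 2 (0.053) and polyubiquitin in line 9 against line 12 without line 9 replicate 1 (-0.10). With 1 library left out these contrasts ran from -0.053 to 0.221, from -0.231 to 0.053 and from -0.102 to 0.154. Dehydrin stayed between -1.21 and -1.13 in line 9 against line 12, between -0.83 and -0.75 in line 9 against the Wild type and between 0.36 and 0.41 in line 12 against the Wild type, while line 47 against the Wild type ran from -0.20 to 0.03. The largest median log2 fold change of all transcripts in any fit was 0.0334 in size, with library totals only, beside 0.0150 in the main fit.

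Counts of transcripts called were unstable. In line 9 against line 12, line 9 against line 47, line 12 against line 47 and among the 3 lines they were 14, 8, 9 and 16. DESeq2 called 280, 525, 169 and 679, the lane tag as a covariate gave 9, 4, 5 and 10, and leaving out both lane tag 6 libraries of line 47 gave 6, 1, 1 and 3. RNAi libraries alone gave 13 in line 9 against line 47. Leaving out 1 library gave between 6 and 22 in line 9 against line 12, 4 and 37 in line 9 against line 47, 5 and 39 in line 12 against line 47 and 10 and 47 among the lines, the highest of the last 3 without line 47 replicate 1. The cause was not tested.

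With the replicate number as a block, 5 transcripts were called in line 9 against line 12, 8 in line 9 against line 47, 6 in line 12 against line 47 and 11 among the lines. The numbers are not shown to pair libraries: same-numbered libraries of 2 genotypes had correlations of their deviations between -0.60 and 0.63. Correlations between transcripts kept their sign and their side of the threshold under the other scalings, a pseudocount of 5 and each library left out. In the 8 libraries below the gap in metallothionein, an alternative chosen after seeing the data, its r with polyubiquitin was -0.32 against 0.52 over 12. With 1 library left out r ran from -0.62 to -0.10 for metallothionein with catalase, 0.33 to 0.60 for metallothionein with polyubiquitin and 0.24 to 0.58 for catalase with polyubiquitin.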

Other observations

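The 9 transcripts of the study's list that were among the 30 with the most counts held ranks 10 to 18 without a gap, with mean normalized counts between 55342 and 70393. The 9 transcripts above them, the lowest at 102022, and the 12 below them, the highest at 52718, were not in the list. Over the study's 9 libraries the same 9 transcripts again filled ranks 10 to 18. The median size of the log2 ratio of RNAi over Wild type means in those libraries was 0.09 for the 9 listed and 0.11 for the 21 unlisted transcripts. The largest size was 0.55 among the listed and 0.40 among the unlisted. The RNAi and Wild type values overlapped for all 9 and all 21. No test was made of this pattern.

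DAHP synthase (PGSC0003DMT400079161), which opens the shikimate pathway, ran opposite to metallothionein within genotypes. Its deviations from the genotype means correlated with the scores of the main axis of variation with an r of -0.98 over 12 libraries, against 0.86 for metallothionein. It had 37902 normalized counts in line 12 replicate 1 and 38499 in Wild type replicate 3, the lowest of the 12 libraries, and 85948 in Wild type replicate 2, the highest. How many of all transcripts reach an r of this size with the axis is not given here.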
